A study of Mus musculus with 14 samples.

Results

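Zeb1 and Zeb2 are the 2 members of the ZEB family of transcription factors, and their RNA was followed here through 14 mouse thymic lymphomas, 7 each from Vav-SB and CD4-SB mice, models of T-ALL, a leukaemia of developing T cells. They are 2 of the 15803 genes on the exon arrays. Zeb1 had 11 probe sets and Zeb2 13, taken as all rows that the platform annotation gives to that gene alone (24 of 179496 with 1 gene). A probe set is a few probes that usually sample 1 exon of a gene. The level of a gene is the mean log2 value over its probe sets. Both are Sleeping Beauty models, in which mobilised transposons mutate genes where they land. The groups are the strain labels Vav-SB and CD4-SB. For genotypes beyond these names, ages and treatments, the sources used here give nothing. The Vav promoter is known to be active in blood-forming cells from the stem cell on, and Cd4 elements from late thymocyte stages. All tumours are labelled thymic lymphoma, and the tissue is whole tumour with whatever host cells it held.

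ZEB factors hold a cluster of zinc fingers near each end of the protein and bind the E-box CACCTG, mostly as repressors that recruit the CtBP corepressors. In epithelia they switch off E-cadherin and other junction genes during the epithelial-mesenchymal transition. In the thymus Zeb1 is needed for normal numbers of early thymocytes, and it is known as a repressor of Il2 and Cd4. Zeb2 binds SMAD proteins, acts with T-bet in effector T cells and NK cells, and is abundant in macrophages and dendritic cells.

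The E-box was searched as CACCTG and its reverse complement CAGGTG in promoter windows from RefSeq (GRCm38.p6), which run from 250 bases before to 50 bases after a start site. It was present in 20.2% of 32851 windows. Among the epithelial genes that ZEB factors repress, 12 had a window, and 13 of their 17 windows (76.5%) held it. Some of these windows overlap, as those of 1 gene with neighbouring starts do. At least 2 copies were present in 8 of these 17, against 2.88% of all windows. The genes were listed as known targets, so this share describes the list and tests nothing. Of the effector and NK genes listed for Zeb2 and T-bet, 5 of 10 windows (50%) held the motif. In the other lists it was in 2 of 17 windows of corepressors, 0 of 15 of the TGF-beta and BMP pathway, 1 of 8 of other E-box factors, 0 of 5 of T-cell genes with a described ZEB site, 1 of 6 of memory genes and 1 of 11 of progenitor genes. Of the 4 Zeb2 windows 0 held the motif, which says only that these letters are not in them. These 3 promoters are shown as examples, Crb3 and Cldn7 for cell polarity and tight junctions and Epcam for adhesion. Each holds at least 2 copies and belongs to a gene that ZEB factors are known to repress and that was measured below. Rab25, Patj, Cldn4 and Ocln also had such a window and are not shown. Capitals mark each copy on either strand.
Crb3, chr17:57061951-57062250, plus strand: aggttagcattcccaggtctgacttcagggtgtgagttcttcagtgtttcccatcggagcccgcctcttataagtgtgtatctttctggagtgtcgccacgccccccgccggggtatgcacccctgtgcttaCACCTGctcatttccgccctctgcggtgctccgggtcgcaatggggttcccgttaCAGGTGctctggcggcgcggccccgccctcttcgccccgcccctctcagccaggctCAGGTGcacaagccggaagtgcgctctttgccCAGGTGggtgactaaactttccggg
Cldn7, chr11:69965171-69965470, plus strand: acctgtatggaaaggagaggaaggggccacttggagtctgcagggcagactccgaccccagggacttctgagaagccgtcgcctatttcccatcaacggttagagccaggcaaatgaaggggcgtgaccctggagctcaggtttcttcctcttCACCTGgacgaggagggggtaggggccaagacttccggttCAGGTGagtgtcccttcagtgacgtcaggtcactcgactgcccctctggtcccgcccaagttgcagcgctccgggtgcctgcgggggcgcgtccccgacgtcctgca
Epcam, chr17:87635729-87636028, plus strand: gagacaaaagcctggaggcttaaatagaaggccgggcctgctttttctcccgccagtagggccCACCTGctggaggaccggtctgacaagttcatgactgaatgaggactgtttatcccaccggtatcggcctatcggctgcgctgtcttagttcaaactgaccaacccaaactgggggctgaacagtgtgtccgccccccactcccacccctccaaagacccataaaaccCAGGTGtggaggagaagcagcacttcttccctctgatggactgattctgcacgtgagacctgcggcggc
Crb3 held 4 copies, the first at position -118 from the start site and the last at 26. The Cldn7 window shown held 2, at -97 and -57, while a second Cldn7 window, chr11:69964529-69964828, held 0. Epcam held 2, at -187 and -19. A match is a description and not evidence of binding in these tumours.

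T-lineage markers were high in both models, at a mean level of 10.67 ± 0.14 in Vav-SB against 10.26 ± 0.28 in CD4-SB (SD, n = 7 each) over 8 genes, where the median of all genes was 7.22. Markers of other cells moved with the model. The mean level of 49 markers of macrophages, dendritic cells, B cells, granulocytes and stroma ran from 7.64 to 8.66 in CD4-SB. In Vav-SB it ran from 7.31 to 8.01 (two-sided exact permutation test, p = 0.00816). A gene is called where its adjusted p over all genes is under 0.05 (limma), which 7.18% of all genes passed with the higher level in CD4-SB and 7.28% with the higher level in Vav-SB. The mean of the 14 macrophage markers did not overlap between models, at 8.83 to 9.47 in CD4-SB against 7.89 to 8.79 in Vav-SB. Singly, only Fcgr3 and Ctss did not overlap, as 1.53% of all genes did not with CD4-SB higher. Of the 14 genes, 7 were called higher in CD4-SB and 0 in Vav-SB. Of the dendritic markers 3 of 10 were called higher in CD4-SB, of the stroma markers 2 of 12 (and 1 in Vav-SB), and of the B-cell, NK and granulocyte markers 0 in either direction. On this log2 scale no marker is at 0. CD4-SB replicate 1 had the highest marker level of all tumours, and Vav-SB replicate 3 the highest of its model. In whole tumour RNA, fewer cells of a type and less RNA per cell cannot be told apart.

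Zeb1 was higher in every Vav-SB tumour than in any CD4-SB tumour. Its level was 8.48 at the lowest, 8.77 at the median and 9.07 at the highest in Vav-SB. In CD4-SB the lowest, median and highest levels were 7.73, 8.04 and 8.28. The 2 groups therefore left a gap between CD4-SB replicate 4 at the top of one and Vav-SB replicate 6 at the bottom of the other. The difference was 0.84 ± 0.11 on the log2 scale (SE), or 1.79-fold (95% interval 1.51 to 2.13; limma, adjusted p = 0.000294). An exact permutation test over the 3432 ways to split the tumours gave p = 0.000583 (two-sided), the smallest it can give. By its p-value Zeb1 stood at place 138 of all genes. In 2.51% of genes every Vav-SB tumour lay above every CD4-SB tumour, in 1.53% the reverse held, and 7.28% were called higher in Vav-SB.

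Zeb2 ran the other way, with overlap. In CD4-SB its lowest, median and highest levels were 8.21, 8.78 and 10.08. In Vav-SB they were 7.71, 8.05 and 8.61. All 7 CD4-SB tumours lay above the Vav-SB median, and 5 of them above the highest Vav-SB tumour, replicate 3. The difference was 0.82 ± 0.23 on the log2 scale (SE), 1.77-fold higher in CD4-SB (95% interval 1.26 to 2.48; limma, adjusted p = 0.0267), against a background of 7.18% of genes called in that direction. In CD4-SB 1 tumour stood apart from the other 6. Replicate 1 stood at 10.08 and the next, replicate 6, at 8.92. Without replicate 1 the difference was -0.62 ± 0.15 (SE, Vav-SB minus CD4-SB) and passed (limma, adjusted p = 0.017). The call was lost without Vav-SB replicate 2 and without Vav-SB replicate 5, the 2 tumours with the least Zeb2, at an adjusted p of 0.0578 each.

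**Figure D1:**
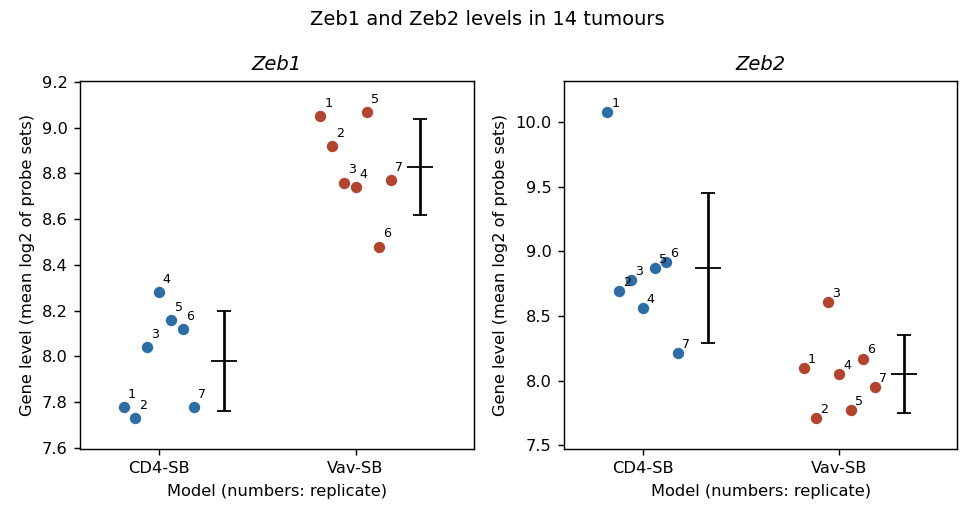
Levels of Zeb1 (left) and Zeb2 (right) in each tumour, as mean log2 values over probe sets; numbers are replicates, and bars give the mean ± SD of 7 tumours. Zeb1 separates the models with the CD4-SB tumours at 7.73 to 8.28 and the Vav-SB tumours at 8.48 to 9.07, while Zeb2 overlaps and CD4-SB replicate 1 stands apart at 10.08.

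Since the 2 genes moved in opposite directions, Zeb1 minus Zeb2 was taken within each tumour, a measure chosen after their values were seen. Its absolute size has no meaning, because the probes of the 2 genes bind unequally, but its change between models can be compared. It ran from 0.16 to 1.30 in Vav-SB and from -2.30 to -0.28 in CD4-SB, with no overlap. The difference of 1.66 on the log2 scale had the smallest exact permutation p possible (p = 0.000583, two-sided). It stayed between 1.43 and 1.77 when each tumour was left out in turn. Zeb1 alone already separates the models, so this measure adds no separate evidence for Zeb2.

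The marker level of other cell types was set against each gene within a model. In Vav-SB, tumours with more Zeb2 had a higher marker level (Pearson r = 0.89, exact permutation p = 0.00357, adjusted p = 0.0214 over 6 relations; Spearman rho = 0.89, exact permutation p = 0.0123, adjusted p = 0.0738). Without Vav-SB replicates 3 and 6, the tumours farthest from the median marker level, r was 0.62 (exact permutation p = 0.267, over 5 tumours). Within CD4-SB, r was 0.72 (exact permutation p = 0.0397, adjusted p = 0.119) and rho 0.75 (exact permutation p = 0.0663, adjusted p = 0.199), which did not pass the adjustment. Without replicates 2 and 7 that r was 0.74 (exact permutation p = 0.15), and without replicate 1 it was 0.64 (exact permutation p = 0.169). The 7 CD4-SB tumours carry only 4 different first numbers in their titles, whose meaning the labels do not give, so they may not be independent.

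For Zeb1 and the marker level, r was -0.42 in Vav-SB against 0.30 in CD4-SB (exact permutation p = 0.357 and 0.488, adjusted p = 0.535 and 0.586; rho = -0.32 and 0.14, exact permutation p = 0.498 and 0.783, adjusted p = 0.746 and 0.906). Without the 2 tumours farthest from the median marker level both signs turned, to 0.47 and -0.88 (exact permutation p = 0.458 and 0.0417). For Zeb1 and Zeb2, r was -0.44 in Vav-SB against -0.22 in CD4-SB (exact permutation p = 0.32 and 0.735, adjusted p = 0.535 and 0.735; rho = -0.57 and -0.07, exact permutation p = 0.2 and 0.906, adjusted p = 0.4 and 0.906). Without the 2 tumours farthest from the median of Zeb1, r was -0.30 and 0.63 (exact permutation p = 0.592 and 0.267). None of these Zeb1 relations passed the adjustment.

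With the marker level as a covariate, the Zeb1 difference was 0.85 ± 0.16 (SE) and passed (limma, adjusted p = 0.0124). The Zeb2 difference was -0.18 ± 0.22 there and did not pass (limma, adjusted p = 0.686). Fewer genes passed in all with the covariate, 399 higher in Vav-SB against 199 in CD4-SB, where 1150 and 1134 passed without it. The marker level itself differed between the models, so this fit cannot fully separate a difference between models from it.

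**Figure D2:**
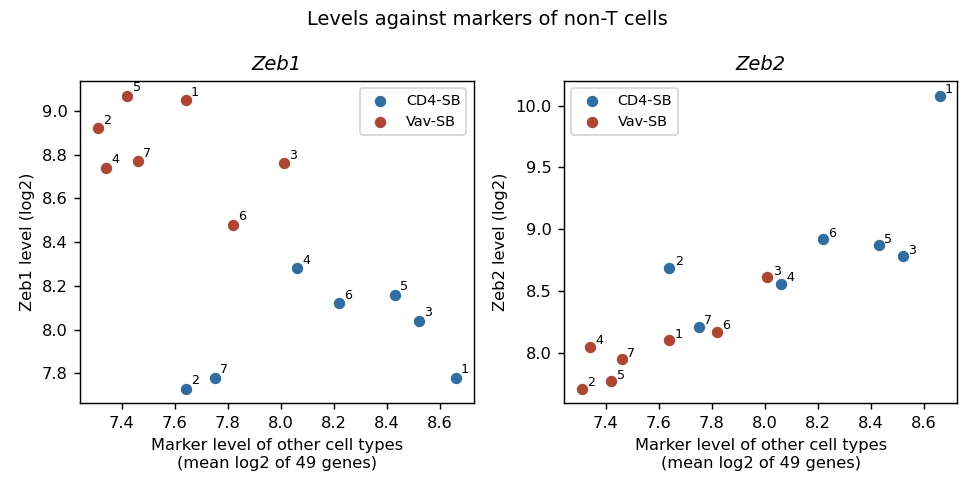
Zeb1 (left) and Zeb2 (right) levels on the log2 scale against the mean log2 level of 49 markers of other cell types, 1 point per tumour with its replicate number. For Zeb2 and the marker level r was 0.89 in Vav-SB against 0.72 in CD4-SB (exact permutation, adjusted p = 0.0214 and 0.119). Without the 2 tumours farthest from the median marker level neither passed (exact permutation p = 0.267 and 0.15). The Zeb1 points of the 2 models do not overlap in height.

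All 24 probe sets pointed the way of their gene. Of the 11 Zeb1 probe sets, 11 were higher in Vav-SB, by 0.37 to 1.44 on the log2 scale, and 8 passed (limma over all probe sets, adjusted p = 0.000278 to 0.0443), where 4.53% of all probe sets passed in that direction. In 5 of the 11 the models did not overlap, as in 1.76% of all probe sets. Probe set 5597517 had the largest difference, at 9.87 ± 0.42 in Vav-SB against 8.43 ± 0.39 in CD4-SB (2.71-fold). The 3 that did not pass were 5391180, 4450110 and 5307712. The last of these is dim, with a mean of 4.30 ± 0.85 in Vav-SB against 3.69 ± 0.72 in CD4-SB. Probe sets of 1 gene share their RNA and are not independent of one another.

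Of the 13 Zeb2 probe sets, 13 were higher in CD4-SB, by 0.22 to 1.25 on the log2 scale, and 7 passed (limma over all probe sets, adjusted p = 0.0159 to 0.049), against 3.99% of all probe sets in that direction. In 0 of them did the models separate, as they did in 0.94% of all probe sets. The largest difference was that of 5244579, at 10.19 ± 0.82 in CD4-SB and 8.94 ± 0.71 in Vav-SB (2.38-fold). The smallest was 5048536, at 8.21 ± 0.27 and 8.0 ± 0.22. Leaving out CD4-SB replicate 3 or 5 or Vav-SB replicate 1, 4, 5 or 7 left 4 calls each, and leaving out Vav-SB replicate 2 left 3. With the marker level as a covariate 0 Zeb2 probe sets and 4 Zeb1 probe sets passed.

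**Figure D3:**
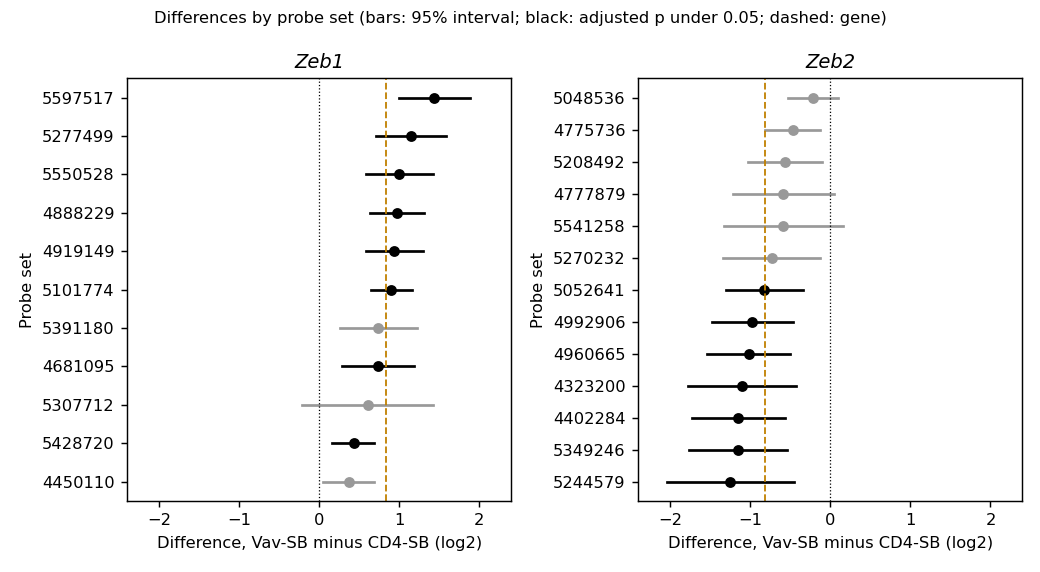
Difference in log2 value, Vav-SB minus CD4-SB, for each probe set of Zeb1 (left) and Zeb2 (right), with its 95% interval; black marks an adjusted p under 0.05 over all probe sets, and the dashed line is the gene's difference. The 11 Zeb1 probe sets lie at 0.37 to 1.44 and the 13 Zeb2 probe sets at -1.25 to -0.22.

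Whether any probe set differed from the rest of its gene was tested with limma's diffSplice. It called 0 of the 11 Zeb1 and 0 of the 13 Zeb2 probe sets, with unadjusted p under 0.05 in 3 and 1 of them, where 1.33% of all probe sets were called. For the genes as a whole the adjusted p was 0.198 for Zeb1 and 0.731 for Zeb2 (diffSplice, Simes), and 9.9% of genes passed. On simulated data diffSplice made more calls among unchanged probe sets than the other tests did. A fit that gives each probe set its own spread, added after the data were seen, called 1 Zeb1 probe set and 0 of Zeb2, with unadjusted p under 0.05 in 3 and 5, and 1.77% of all probe sets. The Zeb1 probe set was 5428720, whose model difference was 0.46 smaller than that of the other Zeb1 probe sets (limma, adjusted p = 0.0492). The Zeb1 probe sets farthest above and below the rest were 5597517, by 0.66, and 4450110, by -0.52. In Zeb2, 5048536 differed from the rest by 0.65, 5244579 by -0.47 and 4775736 by 0.38, and none of these 3 passed in either test.

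Single tumours broke the pattern of their gene. In CD4-SB replicate 4, Zeb1 probe set 4681095 stood at 9.40, where the other 6 CD4-SB tumours ran from 7.76 to 8.21 and the 7 Vav-SB tumours from 8.70 to 9.14. Probe set 5391180 stood at 10.55 in the same tumour, with the other CD4-SB tumours at 8.80 to 9.44 and Vav-SB at 9.81 to 10.32. In this tumour these 2 probe sets lay above every other tumour of the series, while the other 9 averaged 7.90, inside the CD4-SB range of 7.58 to 8.01. Measured against the rest of Zeb1 and the other CD4-SB tumours, they were 1.17 and 1.25 higher on the log2 scale. Deviations of about this size occurred elsewhere too, as in Zeb1 probe set 5277499 in CD4-SB replicate 6 (1.02). The dim 5307712 deviated by 1.21 in Vav-SB replicate 2 and -1.25 in Vav-SB replicate 7. Zeb2 probe set 4775736 deviated by -1.25 in CD4-SB replicate 1. The other 9 Zeb1 probe sets of CD4-SB replicate 4 deviated by -0.75 to 0.01, each against a mean that holds the 2 high ones. With the other 9 probe sets alone, the model difference of Zeb1 was 0.87 and the groups stayed apart. The 2 probe sets were left out for their values in these same tumours, so this describes Zeb1 and adds no evidence. The order of probe sets along the gene was not used here.

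Zeb2 in CD4-SB replicate 1 was high across its probe sets. This tumour had the highest CD4-SB value in 12 of the 13 probe sets and lay above all Vav-SB tumours in 13. Probe set 5541258 reached 12.06 there, where the other CD4-SB tumours ran from 9.25 to 10.50, and probe set 4777879 reached 9.0 against 6.78 to 7.34. Macrophage markers in this tumour averaged 9.47 and stroma markers 8.68, each the highest of CD4-SB. Its dendritic and B-cell markers, at 8.75 and 7.22, each ranked 4 from the highest, and its granulocyte markers, at 8.51, ranked 2. Its NK markers were the lowest of the model at 4.72. In Vav-SB, replicate 3 had the highest value in 10 of 13 Zeb2 probe sets. It also had the highest macrophage, dendritic, B-cell and stroma levels of its model, at 8.79, 8.03, 6.74 and 8.11. Its granulocyte level, at 7.57, ranked 4 from the highest. The part of these cells in the Zeb2 levels of single tumours was not tested.

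**Figure D4:**
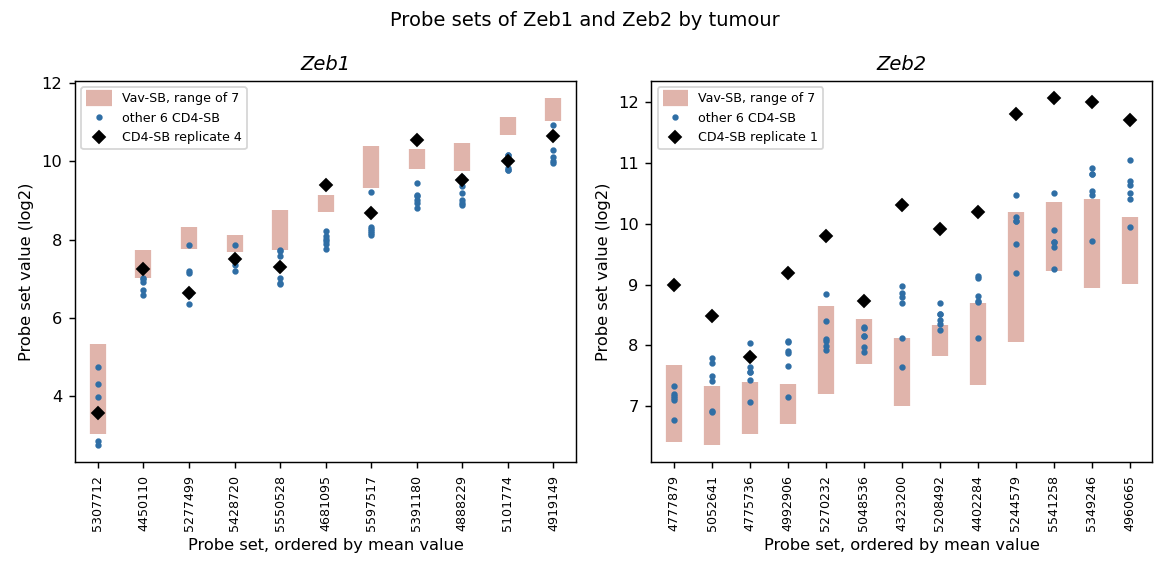
Log2 values of the probe sets of Zeb1 (left) and Zeb2 (right), ordered by mean value; red bars span the 7 Vav-SB tumours, blue points are 6 CD4-SB tumours and black diamonds the remaining one. CD4-SB replicate 4 rises above the Vav-SB range in 2 of 11 Zeb1 probe sets, and CD4-SB replicate 1 lies above it in 13 of 13 Zeb2 probe sets.

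The genes most like each factor were ranked by Pearson's r over the 14 tumours after each model's mean was taken off, among 7900 other genes of at least median level. These r describe tumours that share array processing and host cells. For Zeb1 they were Vezf1 (r = 0.80), F2rl1 (0.77), Pdcd4 (0.75), Sirt1 (0.75) and Lrrc42 (0.74). For Zeb2 they were higher, with Tgfbi at 0.96, Ncf1 at 0.95, Sirpa and Pid1 at 0.93 each and Rrbp1 at 0.92. As the 5 highest of 7900 for each factor, such r are high in part by the choice, and they were not tested. Without CD4-SB replicate 1 the values for Zeb2 were 0.82 to 0.89, and those for Zeb1 0.72 to 0.77. In the order given, the Zeb1 genes then stood at places 4, 10, 13, 25 and 11 among the 7900. Those of Zeb2 stood at places 3, 5, 21, 13 and 14. The genes like Zeb2 followed the marker level of other cells at r of 0.64 to 0.82, and those like Zeb1 at -0.28 to 0.33. This contrast can follow from the choice of genes and adds no evidence. The first were picked for following Zeb2, which itself had the higher r with the marker level in each model. Tgfbi, Ncf1, Sirpa and Rrbp1 were called higher in CD4-SB (limma, adjusted p = 0.00657, 0.0118, 0.0325 and 0.00828) and Pid1 was not (adjusted p = 0.125). Pid1 passed without CD4-SB replicate 1 (-0.56, limma, adjusted p = 0.0361), with bright probe sets only (-1.46, adjusted p = 0.0497) and with array weights (-0.94, adjusted p = 0.0497). Its difference was 0.00 with the marker level as a covariate (limma, adjusted p = 0.997). Of the genes like Zeb1, Lrrc42 was called, at 8.73 ± 0.24 in Vav-SB against 8.12 ± 0.38 in CD4-SB (adjusted p = 0.0215). With the marker level as a covariate the differences of Tgfbi, Ncf1, Sirpa and Rrbp1 were -0.53, -0.27, -0.13 and -0.23, where they had been -1.51, -0.81, -0.81 and -0.60, and did not pass (adjusted p = 0.307, 0.442, 0.777 and 0.341). That of Lrrc42 was 0.68 there, where it had been 0.61, and did not pass either (adjusted p = 0.117), nor with 1 tumour per title number (0.52, adjusted p = 0.0544). The Sirpa call also ended on leaving out any of 7 tumours (adjusted p up to 0.0704), with the median of probe sets (-0.87, adjusted p = 0.0731) and with Y-linked genes in the model (-0.74, adjusted p = 0.0734).

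Around the members, 90 of 97 genes in 8 lists were measured, with 10 calls toward Vav-SB and 14 toward CD4-SB. That is 26.7%, against 14.5% of all genes in either direction. Without Vav-SB replicate 2, 4 or 5, the calls toward Vav-SB numbered 5, 6 and 5. With the marker level as a covariate 5 and 4 were called. Every adjusted p of a gene below comes from the limma fit over all genes, whose median difference was 0.00.

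Of 14 measured corepressor and chromatin genes, 1 was called higher in Vav-SB against 0 in CD4-SB, with a list median of 0.18 on the log2 scale. Of all genes 7.28% and 7.18% were called in these directions, so 1 of 14 is near the share of all genes. The called gene was Kat2b, an acetyltransferase known to bind Zeb1, at 8.30 ± 0.27 against 7.43 ± 0.49 (1.83-fold, adjusted p = 0.00974). With 1 tumour per title number its difference was 0.58 (adjusted p = 0.0616), and with the marker covariate 1.40 (adjusted p = 0.00201). The CtBP genes, the main corepressors of the family, differed by 0.11 for Ctbp1 (95% interval -0.07 to 0.29, adjusted p = 0.456) and 0.05 for Ctbp2 (-0.15 to 0.24, adjusted p = 0.79). Hdac1 was not measured under a row of its own.

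The TGF-beta and BMP pathway, which raises ZEB genes and whose SMAD proteins bind Zeb2, was split. Of 17 genes, 3 were called higher in Vav-SB against 6 in CD4-SB, with a median of -0.16, where 7.28% and 7.18% of all genes were called. Bmpr1a, a BMP receptor, led in CD4-SB by 3.65-fold (7.77 ± 0.99 against 5.90 ± 0.39, adjusted p = 0.00395), with 1 tumour at 9.85. Tgfb1, the ligand, was 1.75-fold higher there (adjusted p = 0.00202) and Skil, a SMAD repressor, 1.90-fold (adjusted p = 0.00334). Bmpr2, Tgfbr2 and Smad7 were the other 3 higher in CD4-SB. The BMP effector Smad5 was higher in Vav-SB, at 9.01 ± 0.13 against 8.35 ± 0.10 (1.58-fold, adjusted p = 6.83e-05), with no overlap, together with Tgfbr1 and Smad4. With the marker level as a covariate Smad5 and Bmpr1a passed and the other 7 calls of this list did not, Tgfb1 and Skil among them at -0.55 and -0.48 (adjusted p = 0.107 and 0.176).

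Among 9 other E-box factors, 2 were higher in each model. Tcf12, the E protein HEB, led in Vav-SB by 3.05-fold (11.12 ± 0.21 against 9.51 ± 0.21, adjusted p = 6.57e-07) and Snai3 1.40-fold (adjusted p = 0.0309). Snai2 (Slug) and Prrx1, a homeobox factor of mesenchyme listed with the E-box factors, both led in CD4-SB by 1.74-fold (adjusted p = 0.00915 and 0.011). Snai1 was at 5.95 ± 0.16 and 6.01 ± 0.15 (adjusted p = 0.757). Of these calls the Tcf12 one passed with the marker covariate. Those of Snai2, Prrx1 and Snai3 did not, at -0.75, -0.39 and 0.18 (adjusted p = 0.127, 0.347 and 0.572). The Snai3 call ended on leaving out any of 8 tumours (adjusted p up to 0.0638) and when the median of probe sets was used (0.26, adjusted p = 0.218), and that of Snai2 with the latter (-0.66, adjusted p = 0.0502). Snai3 also did not pass with bright probe sets only (0.53, adjusted p = 0.0574) or with Y-linked genes in the model (0.44, adjusted p = 0.0699).

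Of 18 measured epithelial genes that ZEB factors repress, 1 was higher in Vav-SB against 1 in CD4-SB, with a median of -0.10, and calls in either direction made up 14.5% of all genes. None of the 3 genes whose promoters are shown above was called. St14, a membrane protease, led in CD4-SB by 1.89-fold (7.69 ± 0.35 against 6.77 ± 0.20, adjusted p = 0.00108). With bright probe sets only its difference was -0.38 (adjusted p = 0.0476). Esrp2, a splicing factor of epithelia, led in Vav-SB by 1.20-fold (adjusted p = 0.0463), a call that ended on leaving out any of 11 tumours (adjusted p up to 0.0886) , and its difference was 0.06 with bright probe sets only (adjusted p = 0.748). The Esrp2 call also ended with 1 tumour per title number, with the marker covariate and with Y-linked genes in the model (adjusted p = 0.0565, 0.332 and 0.0914). E-cadherin (Cdh1) was at 7.55 ± 0.77 in Vav-SB against 7.90 ± 0.70 in CD4-SB (adjusted p = 0.582), and Epcam at 8.19 ± 1.13 and 9.25 ± 0.66 (adjusted p = 0.133). Crb3 and Cldn7 differed by -0.13 (95% interval -0.34 to 0.08, adjusted p = 0.428) and -0.18 (-0.57 to 0.20, adjusted p = 0.568). Thymic epithelium also expresses these genes, and of its 7 markers 1, Krt5, was higher in CD4-SB.

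Of the 4 measured T-cell genes with a described ZEB site or repression, 2 were higher in Vav-SB, the model with more Zeb1, and 0 in CD4-SB. The coreceptor gene Cd4 was 2.41-fold higher (8.58 ± 0.81 against 7.31 ± 0.40, adjusted p = 0.0144) and Gata3, a factor of T-cell development, 1.73-fold (9.75 ± 0.39 against 8.96 ± 0.30, adjusted p = 0.00843). Bcl6, a repressor of germinal centre cells, was at 8.26 ± 0.42 and 7.57 ± 0.87 (adjusted p = 0.198), and Il2 at 5.02 ± 0.22 and 5.17 ± 0.47 (adjusted p = 0.671), below the median of all genes. For Cd4, the call ended when 1 tumour per title number was kept (1.04, adjusted p = 0.089), and that of Gata3 with the marker covariate (0.71, adjusted p = 0.134).

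In the effector and NK programme in which Zeb2 acts with T-bet, 0 of 11 genes were called higher in Vav-SB against 2 in CD4-SB. The list median was -0.62, and 7.28% and 7.18% of all genes were called in these directions. Cx3cr1, a chemokine receptor that macrophages also carry, led in CD4-SB by 2.17-fold (8.75 ± 0.49 against 7.63 ± 0.41, adjusted p = 0.00453), and Prdm1, encoding Blimp-1, 2.02-fold (adjusted p = 0.0232). Cx3cr1 passed with the marker covariate and not when the median of probe sets was used (-0.87, adjusted p = 0.0642). Prdm1 passed with neither (-0.37 and -1.04, adjusted p = 0.532 and 0.0532), nor with bright probe sets only (-0.29, adjusted p = 0.277). Tbx21, which encodes T-bet, was at 7.87 ± 0.61 in CD4-SB and 7.25 ± 0.13 in Vav-SB (adjusted p = 0.0717). It passed with array weights (-0.55, adjusted p = 0.0396) and without CD4-SB replicate 1 (-0.76, adjusted p = 0.0227), the tumour with the most Zeb2. Klrg1, a receptor of terminal effector cells, was at 5.85 ± 1.29 and 4.64 ± 0.09 (adjusted p = 0.0819), with CD4-SB replicate 6 at 8.52. Its models did not overlap, with 4.91 the lowest in CD4-SB and 4.75 the highest in Vav-SB, as in 1.53% of all genes with CD4-SB higher. Without replicate 6 it passed (-0.77, adjusted p = 0.0239). It also passed with the median of probe sets (-1.48, adjusted p = 0.0265) and 1 tumour per title number (-0.77, adjusted p = 0.0408). With title number as a random block or with array weights it passed too (adjusted p = 0.0373 and 0.0376), and in the other alternatives it did not. S1pr5, an egress receptor of NK cells, was at 7.40 ± 0.17 and 7.41 ± 0.16 (adjusted p = 0.95). The largest difference of the list ran toward Vav-SB and was not called. It was that of Gzma, at 8.81 ± 1.92 in CD4-SB and 10.23 ± 0.89 in Vav-SB (adjusted p = 0.224). The 5 NK markers gave 0 calls in either direction (limma).

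Of 7 memory and naive T-cell genes 1 passed, where 7.28% of all genes were called higher in Vav-SB. Tcf7 was 3.40-fold higher in Vav-SB (11.67 at the lowest there, and 8.26 to 11.75 in CD4-SB, adjusted p = 0.0275). It did not pass on leaving out CD4-SB replicate 5 or Vav-SB replicate 2 or 5 (adjusted p up to 0.0555), nor with the marker covariate (1.44, adjusted p = 0.275), the median of probe sets (1.66, adjusted p = 0.0575) or Y-linked genes in the model (1.66, adjusted p = 0.0589). Il7r, the receptor for interleukin-7, was at 8.36 ± 1.16 and 8.0 ± 0.87 (adjusted p = 0.703). Of 10 early progenitor leukaemia genes, a class of T-ALL in which Zeb2 can act as an oncogene, 0 were called higher in Vav-SB against 3 in CD4-SB. The list median was -0.41, and 7.28% and 7.18% of all genes were called in these directions. Meis1, a homeobox factor of stem cells, led by 2.15-fold (adjusted p = 0.00295). The adhesion receptor Cd44 led by 2.05-fold (adjusted p = 0.0238), and Spi1 by 1.51-fold (adjusted p = 0.0342). All 3 calls were lost with the marker covariate, at -0.79, -0.60 and -0.01 (adjusted p = 0.124, 0.392 and 0.969). Spi1, the myeloid factor PU.1, also did not pass on leaving out any of 9 tumours (adjusted p up to 0.0704), nor Cd44 without Vav-SB replicate 4 (adjusted p = 0.051). With Y-linked genes in the model neither passed (adjusted p = 0.0653 and 0.0549), nor did Spi1 with the median of probe sets (-0.76, adjusted p = 0.062).

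**Figure D5:**
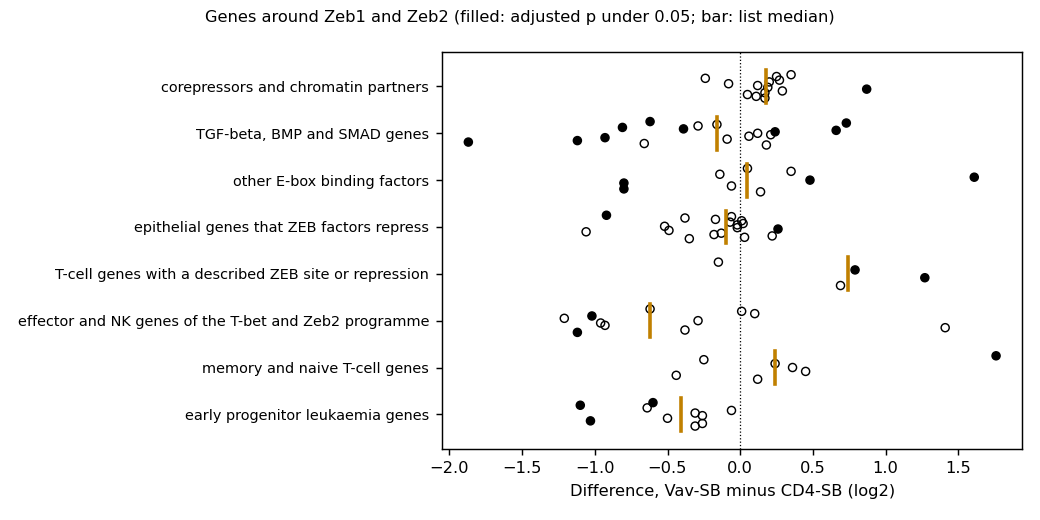
Difference in log2 level, Vav-SB minus CD4-SB, of each measured gene in the 8 lists; filled points passed at an adjusted p under 0.05 and bars mark list medians. The effector and progenitor lists have medians of -0.62 and -0.41 with 2 and 3 calls toward CD4-SB, and the epithelial list centres on -0.10 with 1 call each way.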

How the data were processed

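Total RNA of frozen tumours was amplified from a small input by a single-primer isothermal method and hybridised to mouse exon arrays, per the labels' protocols. The deposited values are log2 values per probe set, made by the authors with RMA and Partek per the submitters' processing notes. The log base is read from their range of 2.03 to 14.03, and the sources used here give no versions, background step or probe set filter. Column medians of 7.46 to 7.50 show arrays set to 1 scale, so a change in total RNA cannot be seen. Correlations between arrays were 0.877 to 0.968, with 0 identical pairs. Of 194293 probe sets, 179496 had 1 gene symbol, 1328 several and 13469 none. Symbols came from the platform annotation, updated through a GRCm38.p6 gene table, and gave 15803 genes, with no filter on dim ones. Precision is limited by having 7 arrays in each model.

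Differences are Vav-SB minus CD4-SB and were fitted by limma 3.58.1 (R 4.3.3), and p-values were adjusted by Benjamini-Hochberg over every gene or probe set. Replicates are numbered in accession order. The labels do not say that tumours came from separate animals, so p-values cover only the spread among these samples, which may be technical. Members, lists and tests were chosen with earlier results of these data known. Named genes are up to 4 past the threshold per list, 16 fixed genes of which 15 were measured, and the 5 most like each member. A few more, such as Crb3 and Gzma, are mentioned in passing and are not in the counts of named genes. Tests were checked on simulated data. There diffSplice, which pools the spread over the probe sets of a gene, made more calls among unchanged probe sets than the other tests, and a fit with a spread per probe set was added for that reason.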

Additional observations from a re-analysis of the deposited data

Results flagged for a closer look

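In a group of 7 tumours, a highest or lowest value was listed where its gap to the next value was over 0.568 of the group's range (Dixon's test at the 95% level), which chance does in about 1 in 20 groups. Of 88 groups of gene levels 13 met this, and of 48 groups of probe set values 7. Since 1 tumour's host cells or RNA touch many genes, these are not independent. The groups also hold Zeb1 minus Zeb2 and genes picked for following Zeb1 or Zeb2 in these tumours, such as Pid1, F2rl1 and Lrrc42. Flags of these can follow from that choice.

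CD4-SB replicate 1 stood apart with Zeb2 at 10.08 (next 8.92), Zeb1 minus Zeb2 at -2.30 (next -0.96), Pid1 at 10.22 (next 7.69) and Snai3 at 6.56 (next 7.05). Its Zeb2 probe sets 4777879 and 5208492 stood at 9.0 (next 7.34) and 9.92 (next 8.70). CD4-SB replicate 4 stood apart in the Zeb1 probe sets 4681095, at 9.40 (next 8.21), and 5391180, at 10.55 (next 9.44). CD4-SB replicate 2 had Bmpr1a at 9.85 (next 7.82), and CD4-SB replicate 6 had Klrg1 at 8.52 (next 6.37).

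Vav-SB replicate 3 was highest of its model with Bmpr1a at 6.71 (next 6.05), Prrx1 at 6.87 (next 6.41) and Cdh1 at 9.21 (next 7.67), and in the Zeb2 probe sets 4777879, at 7.68 (next 6.96), and 5541258, at 10.35 (next 9.58). Vav-SB replicate 2 had Gata3 at 10.54 (next 9.89) and Tcf7 at 12.0 (next 11.78). Vav-SB replicate 6 was lowest with F2rl1 at 6.14 (next 6.99), Lrrc42 at 8.20 (next 8.67) and Zeb2 probe set 4775736 at 6.55 (next 7.08).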

How the results depend on the processing

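No paired analysis was possible because replicate numbers were given in accession order. The Zeb1 difference passed under every alternative run, at 0.77 to 0.90, and at 0.80 to 0.90 with each tumour left out. That of Zeb2 ran from -0.93 to -0.62 with each tumour left out (adjusted p 0.012 to 0.0578) and was lost with the marker covariate (-0.18), with Y-linked genes in the fit (-0.79, adjusted p = 0.0558) and without Vav-SB replicate 2 or 5 (-0.76 and -0.77). With each tumour left out, 6 to 8 Zeb1 and 3 to 7 Zeb2 probe sets passed, and 4 and 0 with the marker covariate. Over all genes that covariate left 399 calls toward Vav-SB and 199 toward CD4-SB, against 856 to 1210 and 772 to 1308 with each tumour left out. List calls toward Vav-SB were 6 with a median over probe sets, 5 with 1 tumour per title number, 5 with the marker covariate, 6 with Y-linked genes in the fit and 5 to 10 with each tumour left out, against 10. Toward CD4-SB they were 8 with genes above the median level, 4 with the marker covariate and 12 to 18 with each tumour left out, against 14. A spread per probe set called 1 Zeb1 probe set where diffSplice called 0. Without the 2 farthest tumours, r of the marker level was 0.62 and 0.74 with Zeb2 and 0.47 and -0.88 with Zeb1 in Vav-SB and CD4-SB, and r of the 2 genes in CD4-SB was 0.63. Without CD4-SB replicate 1 these CD4-SB values were 0.64, 0.70 and 0.45. The cause was not tested. Using 1 tumour per title number left too few CD4-SB tumours for a correlation and changed none in Vav-SB.

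Of the 26 called named genes, 18 calls ended with the marker covariate, 7 with Y-linked genes, 7 with a median over probe sets and 7 on leaving out 1 tumour. 5 ended in no alternative. Of the named genes not called, 3 passed in some alternative, namely Tbx21, Klrg1 and Pid1. The marker level itself differed between the models, so that covariate cannot be fully separated from the model and can widen errors. Some calls ended with the difference little changed, as that of Gata3 (0.79 ± 0.18 without the covariate, 0.71 ± 0.25 with it, SE). Others ended with a smaller one, as that of Zeb2 (-0.82 and -0.18). Signs turned only in uncalled genes. These were, with the marker covariate, Cdh1 (0.08), S1pr5 (-0.16), Ctbp1 (-0.04) and Pid1 (0.00); with 1 tumour per title number Il2 (0.00) and Pdcd4 (-0.11); with a median over probe sets Vezf1 (0.16); with bright probe sets S1pr5 (-0.15); with array weights Vezf1 (0.03) and Sirt1 (0.07); and for Sirt1 with the random block (0.02) and Y-linked genes (0.01). With each tumour left out, S1pr5 ran from -0.04 to 0.05, Vezf1 from -0.07 to 0.03, Pdcd4 from -0.04 to 0.17 and Sirt1 from -0.05 to 0.08. Signal near background compresses folds of dim probe sets.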
